A study of Arabidopsis thaliana with 24 samples.

Results

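GH3.3 (AT2G23170), WES1 (AT4G27260, also called GH3.5) and IAA29 (AT4G32280) are 3 auxin genes of Arabidopsis thaliana. They are taken by name, and were proposed with earlier results of these data known. Each is read by 1 probe set, so they make up 3 of the 22746 probe sets tested. RNA from true leaves of wild-type (WT) plants, aged 23 days and grown in soil, was hybridised to 24 Affymetrix Arabidopsis arrays, 1 array per sample. The plants had been grown in 12 h days and were kept in constant light for 24 h before treatment and from then on. They received 1 mM SA (salicylic acid) or water at ZT24 or at ZT36, where ZT counts hours of the light cycle, so that ZT24 is the time of the missing dawn and ZT36 that of the next dusk. The labels give 3 h or 0 h as the time from treatment to sampling. The 8 groups of 3 arrays are SA 3 h after ZT36, SA 3 h after ZT24, SA 0 h at ZT36, SA 0 h at ZT24, water 3 h after ZT36, water 3 h after ZT24, water 0 h at ZT36 and water 0 h at ZT24. The labels call the replicates biological without saying how many plants a sample holds, so a p-value measures the spread between these samples.

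Auxin is a growth hormone that plants keep in balance by making it, moving it and tying it up. GH3 enzymes join acids such as auxin to amino acids, which takes free auxin out of action, and many GH3 genes are themselves switched on quickly by auxin. GH3.3 acts on auxin, and WES1 can act on both auxin and SA. Aux/IAA proteins such as IAA29 hold back auxin-responsive transcription until auxin triggers their breakdown. IAA29 is also known as a gene that light- and temperature-responsive PIF factors, regulators of stem and leaf-stalk growth, switch on.

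Each value below is a log2 expression value relative to the probe set's own median over the 24 arrays, because the deposited values were centred in that way. A value therefore says how far a sample lies above or below that gene's median, and levels of different genes cannot be set against each other. A difference of 1 on this scale is a doubling. "Rose", "fell" and "called" refer to an adjusted p under 0.05 in limma, a linear model fitted over all arrays, with Benjamini-Hochberg adjustment over all 22746 probe sets. Leaves are mixtures of cells, and fewer cells of a type cannot be told apart from less RNA per cell.

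Genes known to respond to SA were higher in the treated leaves. UGT76B1, a glucosyltransferase that acts on SA, differed between SA and water at 3 h by 8.66 (log2, ZT36) and 8.18 (ZT24), and GRX480, an SA-induced glutaredoxin, by 5.01 and 3.63. At 0 h neither was called, with differences of -0.12 and 0.14 for UGT76B1 and 0.01 and -0.21 for GRX480. WRKY53, the only other SA-response gene measured of those listed, was higher at 3 h by 3.89 (ZT36) and 3.39 (ZT24). It was not called at 0 h either, but its group means were higher in SA leaves. They were 0.37 against -0.32 in water at ZT36, and -0.0087 against -0.40 at ZT24. The arrays labelled SA 0 h nevertheless stood apart from water 0 h over many other genes. SA against water at 0 h called 29.0% of all probe sets at ZT36 and 16.2% at ZT24, whereas water 3 h against water 0 h called 0.00879% (2 probe sets) at ZT36 and 0% (0) at ZT24, where 3049 and 728 probe sets had an unadjusted p under 0.05 and array weights in limma gave 1355 and 7 calls. Every SA effect on the 3 genes is therefore given against water 3 h and against SA 0 h. Whether the arrays labelled SA 0 h are what their labels say was not tested, so a value against SA 0 h may not be a change from the untreated state. Both comparisons use the same SA 3 h arrays and are not independent of each other. The share of all probe sets called was high throughout, 40.2% at ZT36 and 38.1% at ZT24 for SA against water at 3 h, and 29.7% and 31.7% for SA 3 h against SA 0 h.

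GH3.3 rose 3 h after SA at both times, WES1 was not called at either time, and IAA29 fell after ZT36 and was not called after ZT24. So 2 of the 3 genes were called at ZT36 and 1 of 3 at ZT24 against water 3 h, beside 40.2% and 38.1% of all probe sets.

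**Figure D1:**
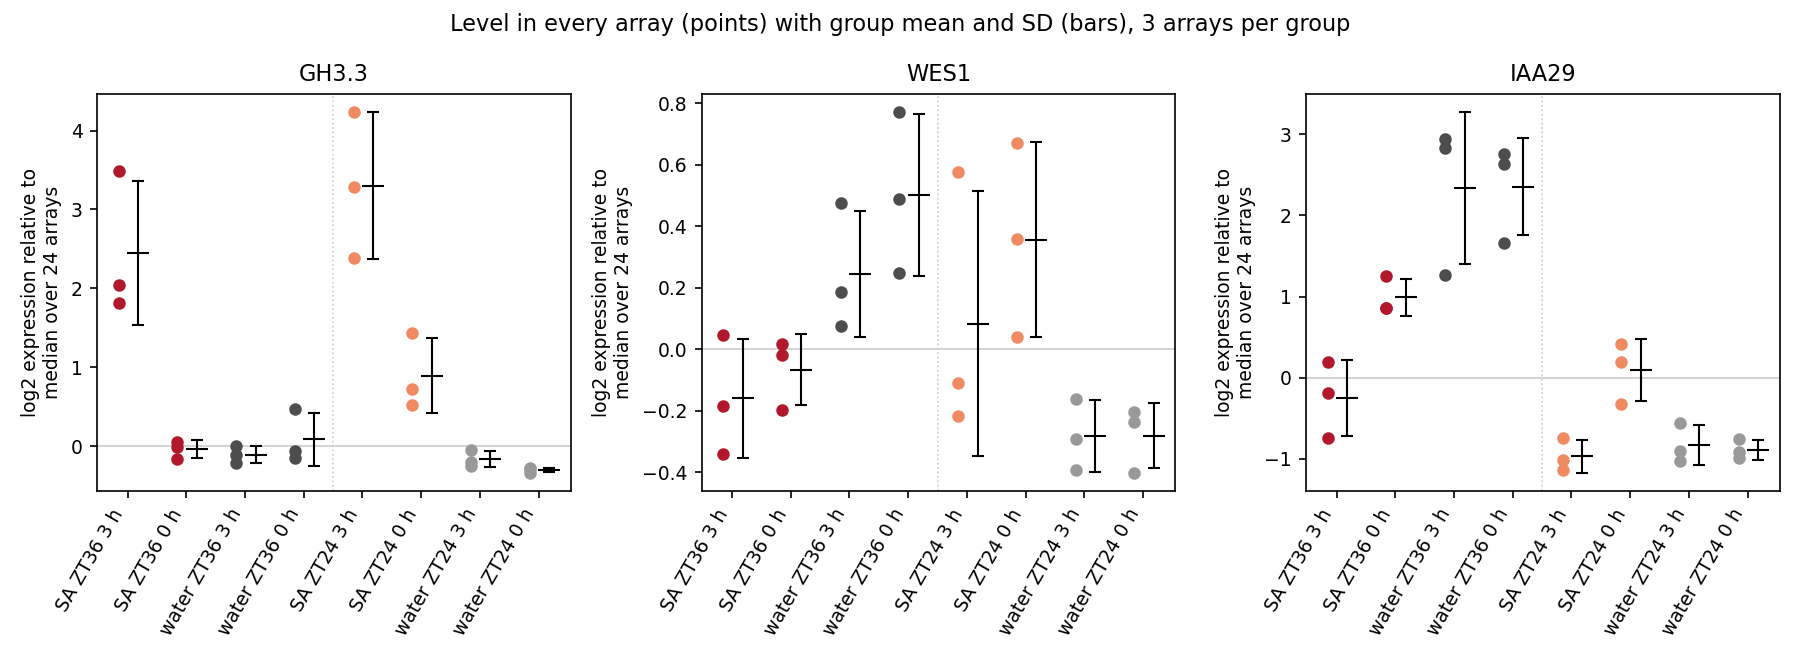
Log2 value relative to the gene's median for GH3.3, WES1 and IAA29 in each of the 24 arrays, by group, with a point per array and a bar for the group mean of 3 arrays. GH3.3 stands high in the SA 3 h groups (means 2.45 at ZT36 and 3.3 at ZT24), IAA29 in the water groups of ZT36 (2.34 at 3 h and 2.35 at 0 h), and WES1 group means stay between -0.28 and 0.50.

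GH3.3 encodes the GH3 enzyme with the widest SA effect at 3 h among the 5 GH3 genes measured, of 11 listed. At 3 h after ZT36 its values were 3.49, 2.04 and 1.81 in SA leaves, against -0.11, -0.21 and 0.0042 in water leaves. At 3 h after ZT24 they were 4.24, 3.28 and 2.38 in SA leaves, against -0.048, -0.25 and -0.20 in water leaves. Every SA leaf sample lay far above every water sample, and replicate 1 was the highest of its SA group at both times. Over all probe sets 22.8% lay higher in SA leaves without overlap at 3 h after ZT36 and 20.2% after ZT24. In the 0 h samples of ZT36 the values were 0.053, -0.0042 and -0.17 in SA leaves, against -0.066, -0.15 and 0.47 in water leaves. In the 0 h samples of ZT24 they were 0.53, 0.72 and 1.44 in SA leaves, against -0.34, -0.29 and -0.28 in water leaves. The groups overlapped at ZT36, but at ZT24 every array labelled SA 0 h was above every water array, as held for 15.1% of all probe sets.

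Against water at 3 h, GH3.3 rose by 2.56 after ZT36 (SE 0.37, 95% interval 1.78 to 3.33, adjusted p = 9.31e-06), which is 5.88-fold. After ZT24 it rose by 3.47 (SE 0.37, 2.69 to 4.24, adjusted p = 1.94e-07), which is 11.0-fold. Ordered by the size of the rise, GH3.3 ranked 253 of 22746 probe sets at ZT36 and 72 at ZT24. Both calls kept their direction and side of the threshold in every alternative run, with SA effects of 1.90 to 2.87 at ZT36 and 2.48 to 3.92 at ZT24. Quantile normalisation gave the lowest value at both times.

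Arrays labelled 0 h already differed at ZT24. GH3.3 was 1.20 higher in SA than in water leaves at 0 h and ZT24 (SE 0.37, 95% interval 0.42 to 1.98, adjusted p = 0.0321). Leaving out any of 5 of the 6 arrays ended the call: adjusted p was 0.156 (value 0.93) without SA replicate 3, 0.0504 without SA replicate 2, and 0.0761 to 0.0781 without a water replicate. The difference at 0 h and ZT36 was -0.13 (SE 0.37, adjusted p = 0.858). Measured against SA 0 h, GH3.3 rose by 2.49 after ZT36 (SE 0.37, adjusted p = 2.24e-05) and by 2.41 after ZT24 (SE 0.37, adjusted p = 2.88e-05). After quantile normalisation the ZT24 rise over SA 0 h was 1.13 (adjusted p = 0.0065). The SA effect was larger at 3 h than at 0 h by 2.68 at ZT36 (SE 0.53, adjusted p = 0.0006), a test that called 24.9% of all probe sets. At ZT24 it was larger by 2.27 (SE 0.53, adjusted p = 0.0031, 22.2% of all probe sets called), but by 1.00 with adjusted p = 0.117 after quantile normalisation.

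Whether the rise of GH3.3 depended on the time of day was tested as the difference between the ZT36 and ZT24 effects. The 3 h effect against water was 0.91 smaller on the log2 scale after ZT36 than after ZT24, a difference of -0.91 with a 95% interval of -2.01 to 0.19 (SE 0.53, adjusted p = 0.269). Measured against SA 0 h the same difference was 0.08, with an interval of -1.02 to 1.18 (SE 0.53, adjusted p = 0.985), and it was 0.70 after quantile normalisation (adjusted p = 0.483). Neither interval shows that the effects at ZT36 and ZT24 were alike. SA replicate 1 at 3 h after ZT36, with its value of 3.49, decided the first of these tests: without it the difference was -1.43 (adjusted p = 0.0292). The difference of the 0 h effects was -1.32 (SE 0.53, adjusted p = 0.0725). It was called in 3 of the 7 other settings: after quantile normalisation (-1.59, adjusted p = 0.0075), with only the arrays compared (adjusted p = 0.0058) and with array weights (-1.53, adjusted p = 0.0129).

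In water no difference of GH3.3 was called, with an SE shared by all 8 groups. It differed between 3 h and 0 h by -0.20 at ZT36 (adjusted p = 0.882) and 0.14 at ZT24 (adjusted p = 0.9996, SE 0.37 each). Between ZT36 and ZT24 it differed by 0.06 at 3 h (adjusted p = 0.927) and 0.39 at 0 h (adjusted p = 0.454) in water. In SA leaves the ZT36 minus ZT24 difference was -0.85 at 3 h (adjusted p = 0.0973, 28.0% of all probe sets called) and -0.93 at 0 h (adjusted p = 0.076, 24.5% called). The 3 h difference passed the test without SA replicate 1 of ZT36 (-1.38, adjusted p = 0.0046) and without SA replicate 3 of ZT24 (-1.31, adjusted p = 0.0101). The 0 h difference passed it after quantile normalisation (-1.22, adjusted p = 0.0031), with only the arrays compared (adjusted p = 0.0153) and with array weights (-1.18, adjusted p = 0.0063).

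Ordered by mean, GH3.3 was highest in SA 3 h after ZT24 (3.3 ± 0.93, SD, n = 3), then SA 3 h after ZT36 (2.45 ± 0.91), SA 0 h at ZT24 (0.89 ± 0.48) and water 0 h at ZT36 (0.087 ± 0.34). The last 4 were SA 0 h at ZT36 (-0.039 ± 0.11), water 3 h after ZT36 (-0.11 ± 0.11), water 3 h after ZT24 (-0.16 ± 0.10) and water 0 h at ZT24 (-0.30 ± 0.030). Of the 7 steps between neighbours only that of SA 3 h after ZT36 over SA 0 h at ZT24 was called (1.55, SE 0.37, adjusted p = 0.0019), in a comparison that called 41.3% of all probe sets. The scatter between replicates of the SA 3 h groups was large for this array set: 99.7% of probe sets had a smaller SD in SA 3 h after ZT36 and 99.8% in SA 3 h after ZT24.

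**Figure D2:**
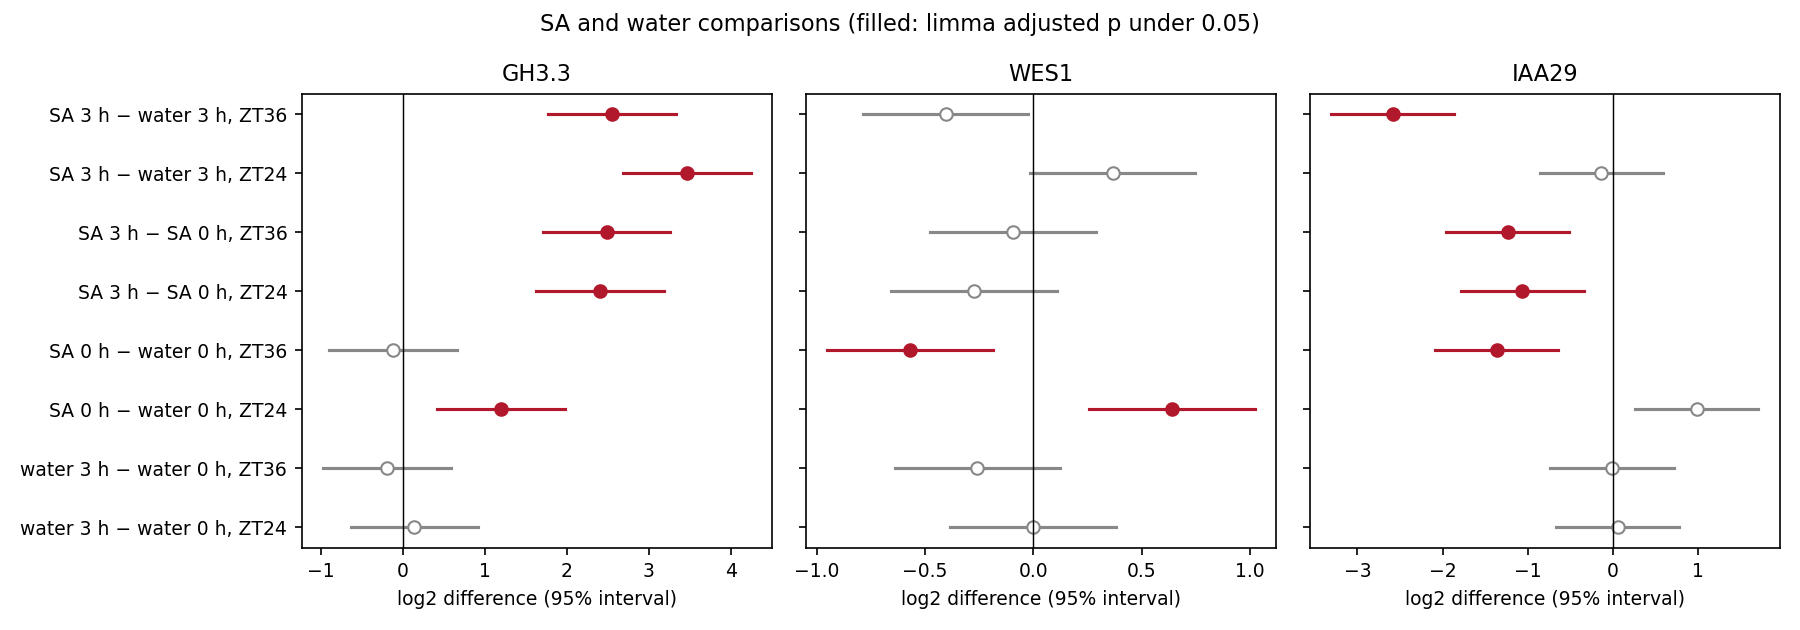
Log2 difference of SA against water at 3 h and 0 h and of SA 3 h against SA 0 h, at ZT36 and ZT24, for GH3.3, WES1 and IAA29, with 95% intervals from limma and filled points for an adjusted p under 0.05. GH3.3 lies between 2.41 and 3.47 in all 4 of the 3 h comparisons, while IAA29 lies at -2.59 against water after ZT36 and at -0.14 after ZT24.

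WES1 encodes a GH3 enzyme that can join both SA and auxin to amino acids, and it moved much less. At 3 h after ZT36 its values were 0.046, -0.19 and -0.34 in SA leaves, against 0.19, 0.075 and 0.47 in water leaves. At 3 h after ZT24 they were 0.58, -0.22 and -0.11 in SA leaves, against -0.16, -0.39 and -0.29 in water leaves. The SA samples lay below water after ZT36 without overlap, as did 27.2% of all probe sets, and overlapped with water after ZT24. At 0 h and ZT36 the values were -0.20, -0.017 and 0.017 in SA leaves, against 0.49, 0.25 and 0.77 in water leaves. At 0 h and ZT24 they were 0.36, 0.040 and 0.67 in SA leaves, against -0.23, -0.40 and -0.21 in water leaves. SA 0 h samples were thus all below water at ZT36, as for 21.6% of all probe sets, and all above water at ZT24, as for 15.1%.

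Against water at 3 h, the WES1 difference was -0.40 after ZT36 (SE 0.18, 95% interval -0.79 to -0.023, adjusted p = 0.0888). It passed the test where the fit held the compared arrays alone (adjusted p = 0.0396). After ZT24 the difference was 0.37 (SE 0.18, interval -0.017 to 0.75, adjusted p = 0.132). That value depends on single SA arrays: it was 0.12 without SA replicate 1, and 0.51 (adjusted p = 0.0451) without SA replicate 2.

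At 0 h WES1 was called at both times, with opposite signs. It was lower in SA than in water leaves by 0.57 at ZT36 (difference -0.57, SE 0.18, adjusted p = 0.0227), and the call was lost without SA replicate 1 (-0.50, adjusted p = 0.0929) or water replicate 3 (-0.43, adjusted p = 0.131). At ZT24 it was higher by 0.64 (SE 0.18, adjusted p = 0.0200), and the call was lost without water replicate 2 (0.58, adjusted p = 0.0818) or SA replicate 3 (0.48, adjusted p = 0.121). Between SA 3 h and SA 0 h no difference was called, with values of -0.09 after ZT36 (95% interval -0.48 to 0.29, adjusted p = 0.794) and -0.27 after ZT24 (interval -0.66 to 0.11, adjusted p = 0.302). Without SA 3 h replicate 1 of ZT24, whose value was 0.58, the second of these was -0.52 and passed the test (adjusted p = 0.0249).

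The effect of SA against water on WES1 was called different between ZT36 and ZT24, but the change counted from SA 0 h was not. At 3 h the ZT36 effect minus the ZT24 effect was -0.77 (SE 0.26, 95% interval -1.31 to -0.23, adjusted p = 0.0392), in a test that called 20.7% of all probe sets. The call was lost with only the arrays compared (adjusted p = 0.0607) and with array weights (-0.68, adjusted p = 0.0501). It was also lost without any of 7 of the 12 arrays, with values of -0.80 to -0.52 and adjusted p of 0.0517 to 0.119. These arrays were SA replicates 2 and 3 and water replicates 1 and 3 of ZT36, and SA replicate 1 and water replicates 2 and 3 of ZT24. At 0 h the same difference was already -1.21 (SE 0.26, adjusted p = 0.0014, 26.2% of all probe sets called). Counted from SA 0 h, the changes after ZT36 and after ZT24 differed by 0.18 (SE 0.26, 95% interval -0.36 to 0.72, adjusted p = 0.901), in a test that called 0.598% of all probe sets.

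WES1 was called between the times of day in water. It was 0.53 higher at ZT36 than at ZT24 in the 3 h samples (SE 0.18, adjusted p = 0.0275) and 0.78 higher in the 0 h samples (SE 0.18, adjusted p = 0.0015). These tests called 38.1% and 40.9% of all probe sets. The 3 h call was lost without water replicate 3 of ZT36 (0.41, adjusted p = 0.134) or without water replicate 2 (0.47, adjusted p = 0.0926) or 3 (0.52, adjusted p = 0.0609) of ZT24. In SA leaves the ZT36 minus ZT24 difference had the other sign and was not called, at -0.24 in 3 h samples (adjusted p = 0.366) and -0.42 in 0 h samples (adjusted p = 0.102). The 0 h value was called after quantile normalisation (-0.56, adjusted p = 0.0187), with array weights (-0.49, adjusted p = 0.0231) and without SA replicate 2 of ZT24 (-0.58, adjusted p = 0.0367). Between water 3 h and water 0 h it differed by -0.26 at ZT36 (adjusted p = 0.587) and -0.0012 at ZT24 (adjusted p = 0.9996).

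The order of WES1 levels ran from water 0 h at ZT36 (0.50 ± 0.26, SD, n = 3) over SA 0 h at ZT24 (0.36 ± 0.32), water 3 h after ZT36 (0.25 ± 0.21) and SA 3 h after ZT24 (0.083 ± 0.43). Below these came SA 0 h at ZT36 (-0.066 ± 0.12), SA 3 h after ZT36 (-0.16 ± 0.19), water 0 h at ZT24 (-0.28 ± 0.11) and water 3 h after ZT24 (-0.28 ± 0.12). None of the 7 steps between neighbours was called, each of them 0.16 or less.

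IAA29 encodes an Aux/IAA repressor, and of the 3 genes it had the widest gap between ZT36 and ZT24 in the SA effects against water. Counted from SA 0 h the gaps were -0.17 for IAA29, 0.18 for WES1 and 0.08 for GH3.3, none of them called. At 3 h after ZT36 its values were 0.19, -0.74 and -0.19 in SA leaves, against 2.83, 1.26 and 2.94 in water leaves. At 3 h after ZT24 they were -1.14, -1.02 and -0.75 in SA leaves, against -0.91, -1.03 and -0.56 in water leaves. SA samples lay well below water after ZT36, without overlap (27.2% of all probe sets), and after ZT24 both treatments held the same low range. The 0 h values at ZT36 were 0.85, 0.86 and 1.26 in SA leaves, against 1.66, 2.76 and 2.63 in water leaves. The 0 h values at ZT24 were -0.33, 0.42 and 0.20 in SA leaves, against -0.76, -0.99 and -0.91 in water leaves. The SA 0 h samples lay between the high water values of ZT36 and the low water values of ZT24 at both times.

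Against water at 3 h, IAA29 fell by 2.59 after ZT36 (SE 0.35, 95% interval of the difference -3.31 to -1.86, adjusted p = 3.08e-06), to a level 6.01-fold lower. It ranked 63 of 22746 probe sets by the size of the fall. In the alternatives this difference ran between -3.13 and -2.29, the lowest of them without water replicate 2, whose value was 1.26. After ZT24 the difference was -0.14 (SE 0.35, interval -0.86 to 0.58, adjusted p = 0.812), and it was 0.25 after quantile normalisation (adjusted p = 0.665).

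IAA29 was also called at 0 h and ZT36. It was lower in SA than in water leaves, with a difference of -1.36 (SE 0.35, adjusted p = 0.0047). After quantile normalisation it was -0.52 and not called (adjusted p = 0.295). Among 0 h samples of ZT24 the difference was 0.98 (SE 0.35, 95% interval 0.26 to 1.71, adjusted p = 0.0582). It was called in 5 of the 7 other settings and without SA replicate 1, with adjusted p between 0.0085 and 0.0466. Leaving out any of the other 5 arrays left it uncalled, with values down to 0.82 and adjusted p up to 0.180.

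Against SA 0 h, IAA29 fell at both times. It fell by 1.24 after ZT36 (SE 0.35, 95% interval of the difference -1.96 to -0.51, adjusted p = 0.0088), a call lost without SA 3 h replicate 2 (-0.99, adjusted p = 0.0635). It fell by 1.06 after ZT24 (SE 0.35, interval -1.79 to -0.34, adjusted p = 0.0220). The ZT24 call ended after quantile normalisation (-0.91, adjusted p = 0.0562) and without SA 3 h replicate 1 (-0.98, adjusted p = 0.0769) or 2 (-1.04, adjusted p = 0.0553), or SA 0 h replicate 2 (-0.90, adjusted p = 0.0930) or 3 (-1.01, adjusted p = 0.0628). The SA effect was more negative at 3 h than at 0 h by 1.23 at ZT36 (difference -1.23, SE 0.49, adjusted p = 0.0761) and by 1.12 at ZT24 (difference -1.12, SE 0.49, adjusted p = 0.117). The ZT24 value was called with only the arrays compared (adjusted p = 0.0072). The ZT36 value was called without SA 3 h replicate 1 (-1.44, adjusted p = 0.0478) or water 3 h replicate 2 (-1.77, adjusted p = 0.0019), and after quantile normalisation (-2.06, adjusted p = 0.0035).

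The time-of-day test of IAA29 gave different answers with the 2 controls. Against water at 3 h the ZT36 effect minus the ZT24 effect was -2.45 (SE 0.49, 95% interval -3.47 to -1.43, adjusted p = 0.0011), and it was called in every alternative run, with values of -2.99 to -2.15. The same difference at 0 h was -2.35 (SE 0.49, adjusted p = 0.0011), and it was called in every alternative run, with values of -2.69 to -1.69, the last of them after quantile normalisation (adjusted p = 0.0126). Against SA 0 h the changes after ZT36 and after ZT24 differed by -0.17 (SE 0.49, 95% interval -1.19 to 0.85, adjusted p = 0.963). A difference of the size seen against water lies outside that interval. After quantile normalisation the difference was -0.91 (adjusted p = 0.397).

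**Figure D3:**
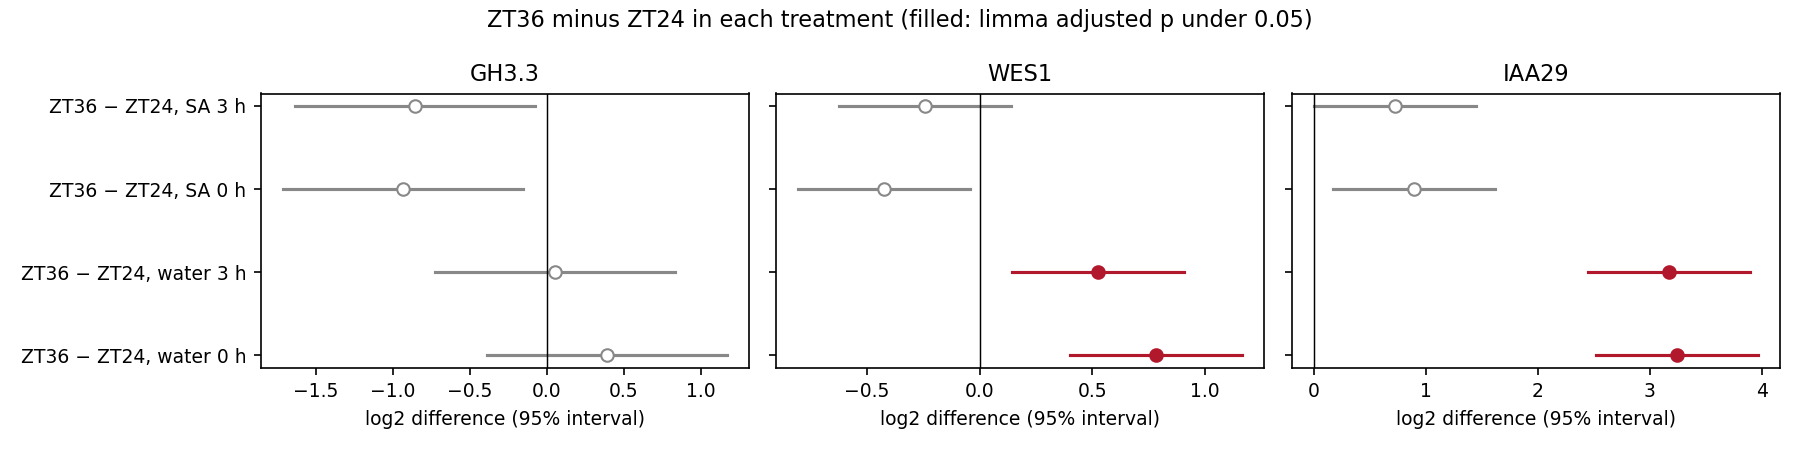
Log2 difference of ZT36 against ZT24 within each treatment and time of sampling for GH3.3, WES1 and IAA29, with 95% intervals from limma and filled points for an adjusted p under 0.05. IAA29 differs by 3.171 (3 h) and 3.24 (0 h) in water but by 0.72 and 0.89 in SA leaves, and WES1 by 0.53 and 0.78 in water.

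In water IAA29 was 3.171 higher at ZT36 than at ZT24 in 3 h samples (SE 0.35, adjusted p = 2.86e-07), or 9.01-fold. In 0 h samples it was 3.24 higher (SE 0.35, adjusted p = 1.63e-07), or 9.45-fold. In SA leaves it was 0.72 higher at 3 h (SE 0.35, adjusted p = 0.133) and 0.89 higher at 0 h (SE 0.35, adjusted p = 0.0663). The 3 h value was called with only the arrays compared (adjusted p = 0.04995). The 0 h value was called after quantile normalisation (1.49, adjusted p = 0.0020), with only the arrays compared (adjusted p = 0.0129) and with array weights (0.84, adjusted p = 0.0460). Between water 3 h and water 0 h IAA29 differed by -0.01 at ZT36 (adjusted p = 0.994) and 0.06 at ZT24 (adjusted p = 0.9996).

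The 2 highest IAA29 groups were water 0 h at ZT36 (2.35 ± 0.60, SD, n = 3) and water 3 h after ZT36 (2.34 ± 0.94), followed by SA 0 h at ZT36 (0.99 ± 0.23) and SA 0 h at ZT24 (0.096 ± 0.38). Then came SA 3 h after ZT36 (-0.25 ± 0.47), water 3 h after ZT24 (-0.83 ± 0.24), water 0 h at ZT24 (-0.89 ± 0.12) and SA 3 h after ZT24 (-0.97 ± 0.20). The only called step between neighbours was that of water 3 h after ZT36 over SA 0 h at ZT36 (1.35, SE 0.35, adjusted p = 0.0079), in a comparison that called 19.6% of all probe sets.

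Over the 24 arrays Pearson's r was 0.57 between WES1 and IAA29, 0.14 between GH3.3 and WES1 and -0.37 between GH3.3 and IAA29. These are descriptions over arrays that share groups and a common normalisation. Over the 8 group means the same pairs gave 0.70, 0.02 and -0.42.

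Most other auxin genes with a named probe set moved little. The lists of GH3 enzymes, Aux/IAA repressors, and genes of auxin synthesis, transport and conjugate turnover together had 22 measured genes, the 3 described above among them. After ZT36, SA against water called 3 of the 22 higher and 2 lower at 3 h, which is 22.7% of them beside 40.2% of all probe sets (18.5% higher and 21.6% lower). After ZT24 it called 2 higher and 3 lower, again 22.7%, beside 38.1% of all probe sets (17.7% higher and 20.5% lower). The median difference of the 22 genes was -0.07 after ZT36 and -0.05 after ZT24, close to -0.02 and -0.03 over all probe sets. Against SA 0 h, 3 were higher and 3 lower after ZT36 (13.3% and 16.4% over all probe sets), and 1 was higher and 3 lower after ZT24 (14.3% and 17.4%). Both ZT24 counts rest on single arrays. The 5 calls against water became 3 without SA replicate 1 or water replicate 2, and the 4 calls against SA 0 h became 2 without SA 0 h replicate 2 or 3. Measured genes, meaning those with a probe set under a single symbol, were few, 5 of 11 for the GH3 list and 7 of 28 for Aux/IAA. No gene of the ARF, SAUR or receptor lists was measured in this sense. Other listed genes may still be on the array, as 8730 tested probe sets had no symbol and 503 had several.

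**Figure D4:**
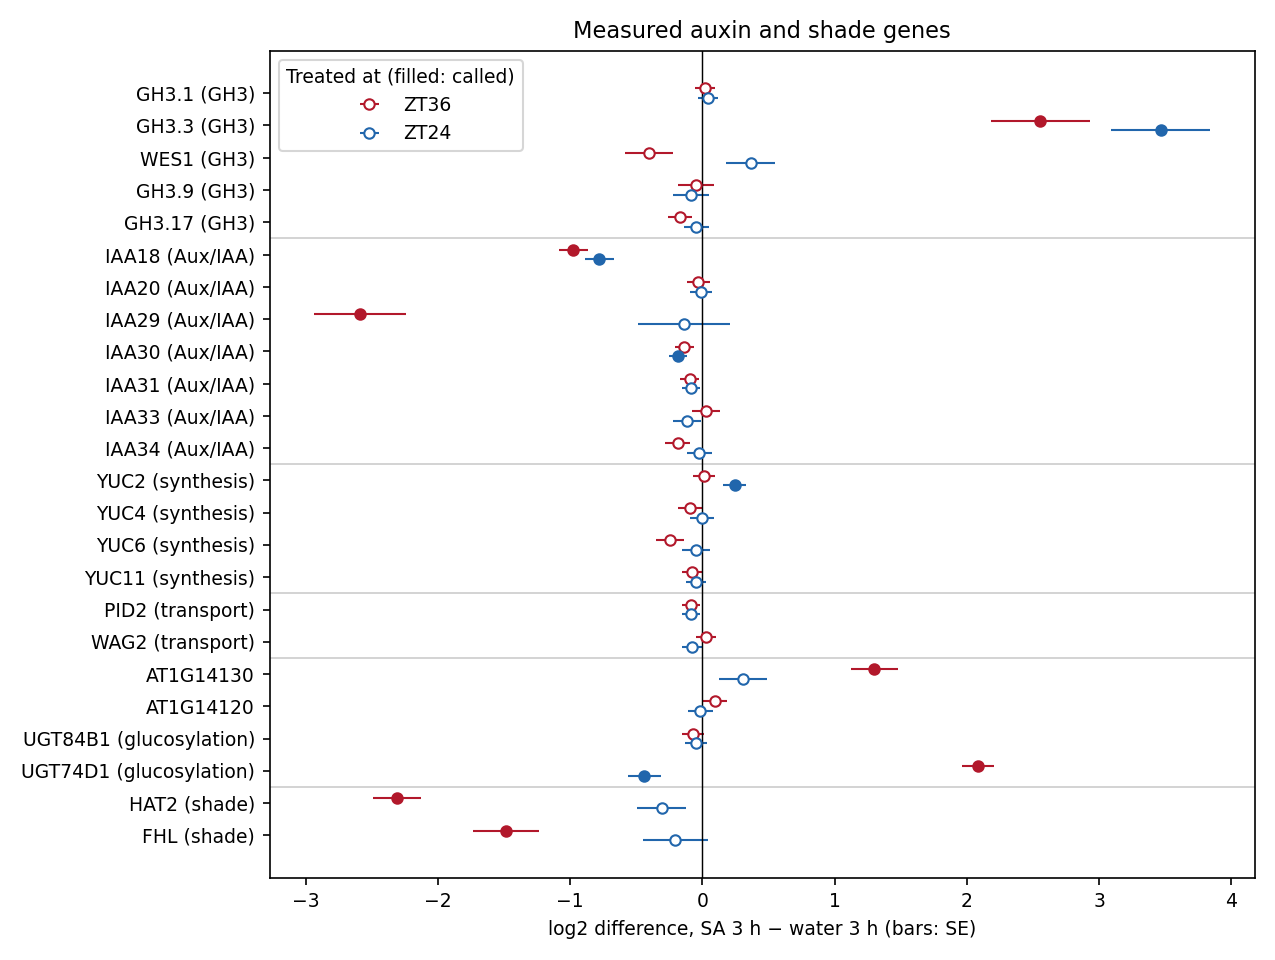
Log2 difference of SA against water at 3 h for the 22 measured auxin genes and the 2 measured shade-responsive genes, after ZT36 and after ZT24, with filled points for a limma adjusted p under 0.05. GH3.3 and UGT74D1 stand highest after ZT36 (2.56 and 2.09), IAA29 and HAT2 lowest (-2.59 and -2.31), and most other genes lie near 0.

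Among the GH3 enzymes only GH3.3, 1 of 5, was called at 3 h against water at either time. These tests called 40.2% of all probe sets after ZT36 and 38.1% after ZT24. Whether the uncalled GH3 genes had signal over background is not known. GH3.1, GH3.9 and GH3.17 differed by 0.02, -0.05 and -0.17 after ZT36 and by 0.04, -0.09 and -0.04 after ZT24. Among 7 Aux/IAA genes IAA18 was called at both times and fell by 0.98 after ZT36 (adjusted p = 2.41e-07) and by 0.78 after ZT24 (adjusted p = 5.21e-06, SE 0.11 each). IAA18 values after ZT36 were -0.46, -0.62 and -0.53 in SA leaves, against 0.27, 0.41 and 0.63 in water leaves. They did not overlap, and 27.2% of all probe sets likewise lay lower in SA leaves without overlap. IAA18 was already lower in SA than in water leaves at 0 h and ZT36 (-0.59, adjusted p = 0.000278), and differed by -0.20 at 0 h and ZT24 (adjusted p = 0.243). It also fell against SA 0 h, by 0.47 after ZT36 and 0.61 after ZT24. The 3 h effects on IAA18 at ZT36 and ZT24 differed by -0.20 (SE 0.15, adjusted p = 0.437). The difference of IAA30 after ZT24 was small (-0.18, adjusted p = 0.0439), and the call was lost without any of 5 of the 6 arrays.

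Of 4 synthesis genes YUC2, a flavin monooxygenase that makes auxin, was 0.24 higher in SA leaves after ZT24 (SE 0.085, adjusted p = 0.0272). The call was lost without any of 3 of the 6 arrays (SA replicates 1 and 2 and water replicate 2). YUC2 was also 0.33 higher in SA leaves at 0 h and ZT24 (adjusted p = 0.0110). UGT74D1, a glucosyltransferase that acts on auxin, rose by 2.09 after ZT36 (SE 0.12, adjusted p = 3.00e-11) and fell by 0.44 after ZT24 (adjusted p = 0.0063). Its values after ZT36 were 0.34, 0.33 and 0.16 in SA leaves, against -1.75, -1.88 and -1.81 in water leaves. After ZT24 they were -0.36, -0.051 and -0.10 in SA leaves, against 0.33, 0.21 and 0.26 in water leaves. The water samples of ZT36 lay far below the other 3 groups, and the groups compared did not overlap at either time. Over all probe sets 22.8% lay higher in SA leaves without overlap after ZT36, and 24.7% lay lower after ZT24. UGT74D1 was already 1.51 higher in SA than in water leaves at 0 h and ZT36 (adjusted p = 3.58e-08). Against SA 0 h its difference was 0.55 after ZT36 (adjusted p = 0.0012) and -0.33 after ZT24 (adjusted p = 0.0451). The ZT24 call was lost without any of 4 of the 6 arrays. AT1G14130 rose by 1.30 after ZT36 (SE 0.18, adjusted p = 4.19e-06) and differed by 0.31 after ZT24 (adjusted p = 0.201).

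The time-of-day test at 3 h called 2 of the 22 auxin genes lower and 2 higher, where 10.4% and 10.3% of all probe sets were called lower and higher. WES1 (-0.77) and IAA29 (-2.45) were the lower ones, and UGT74D1 (2.52, SE 0.17, adjusted p = 6.72e-09) and AT1G14130 (0.99, SE 0.25, adjusted p = 0.0072) the higher ones. For UGT74D1 the change counted from SA 0 h was only 0.55 after ZT36 and -0.33 after ZT24. It already stood higher in SA than in water leaves at 0 h and ZT36, as given above. The AT1G14130 call was lost after quantile normalisation (0.69, adjusted p = 0.153).

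Genes known to respond to shade were set beside IAA29 because of its link to PIF factors, and 2 of 16 were measured. HAT2, an auxin-induced homeodomain-leucine zipper factor, had values of -1.68, -2.23 and -1.45 in SA leaves after ZT36, against 0.77, 0.24 and 0.55 in water leaves. After ZT24 its values were -0.85, -0.48 and -0.25 in SA leaves, against -0.12, -0.44 and -0.093 in water leaves. The groups were far apart after ZT36, where 27.2% of all probe sets lay lower in SA leaves without overlap, and overlapped after ZT24. HAT2 fell by 2.31 after ZT36 (SE 0.18, adjusted p = 2.50e-09) and differed by -0.31 after ZT24 (adjusted p = 0.218), and these effects differed by -2.0 (SE 0.26, adjusted p = 1.47e-05). Against SA 0 h HAT2 fell at both times, with differences of -2.07 after ZT36 and -1.45 after ZT24. HAT2 was 1.29 higher in SA than in water leaves at 0 h and ZT24 (adjusted p = 6.08e-05). FHL, which helps bring phytochrome A into the nucleus, fell by 1.48 after ZT36 (SE 0.25, adjusted p = 4.38e-05) and differed by -0.20 after ZT24 (adjusted p = 0.588), and its effects differed by -1.28 (SE 0.35, adjusted p = 0.0115). FHL was already lower in SA than in water leaves at 0 h and ZT36 (-1.24, adjusted p = 0.0006), and it was not called against SA 0 h (-0.30 after ZT36 and -0.05 after ZT24). The 0 h effects on HAT2 and FHL were also called different between ZT36 and ZT24 (median difference -1.31, 26.2% of all probe sets called). Counted from SA 0 h, the changes after ZT36 and after ZT24 were called different for neither gene (median difference -0.43, 0.598% of all probe sets called).

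Some markers of leaf cells also differed between SA and water at ZT36. Of 10 photosynthesis genes listed 3 were measured. LHCB4.2 and LHCB4.1, which encode light-harvesting proteins, fell by 1.04 and 0.40 after ZT36 against water, and RCA, the Rubisco activase gene, differed by 0.10 and was not called. At 0 h and ZT36 LHCB4.2 was already lower in SA leaves (-0.49, adjusted p = 0.0044) and RCA higher (0.44, adjusted p = 0.000165), and LHCB4.1 differed by -0.14 (adjusted p = 0.219). LHCB4.2, LHCB4.1 and RCA differed at 3 h after ZT24 by 0.05, -0.03 and -0.13, none of them called. PYK10 and EXPA7, the 2 measured of 10 root genes listed, were not called at either time (0.47 and -0.20 after ZT36, -0.02 and -0.03 after ZT24). The part of these shifts in the results of the auxin genes was not tested.

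Across all 13355 other genes with 1 symbol, those with the profile most like GH3.3 over the 24 arrays were AT4G22530 (r = 0.95), SBT3.5, a subtilase-type protease (0.95), AT2G27660 (0.94), AT2G37110 (0.94) and AT5G44570 (0.94). After quantile normalisation these ranked 2, 9, 12, 4 and 26. All 5 were high in the SA 3 h groups, which follows from choosing them for likeness to GH3.3. Their SA against water differences were 0.67 to 4.84 after ZT36 and 0.78 to 4.94 after ZT24. SBT3.5 differed by 1.47 after ZT36 and 2.35 after ZT24. The most opposite profiles were those of AT5G04440 and AT1G05140 (r = -0.96 each), which were lowest in the same groups.

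For WES1 the closest were AT3G04560 (r = 0.85), AT4G34500 (0.83), AT1G20760 (0.82), AT5G11280 (0.82) and AT1G78460 (0.79), which ranked 2, 22, 6, 3 and 1 after quantile normalisation. The likeness was looser than for the other genes. AT1G78460 followed the group means of WES1 with a wider swing, with group means of 0.69 in water 0 h at ZT36 and -1.04 in water 0 h at ZT24. For deviations from the group means its r with WES1 was only 0.23, against 0.50 to 0.69 for the other closest genes. The most opposite profiles were those of AT5G17630 and AT1G67480 (r = -0.83 each).

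For IAA29 the closest were AT4G05150 (r = 0.97), AT5G27930 (0.97), AT1G72160 (0.96), AT1G10090 (0.96) and AT1G75800 (0.96), with ranks of 1, 2, 10, 5 and 4 after quantile normalisation. Like IAA29, and as follows from that choice, they were high in water at ZT36, 1.49 to 2.91 above water at ZT24. At 0 h and ZT36 they differed between SA and water by -1.43 to -0.68. The most opposite profiles were those of HYH, a light-signalling bZIP factor (r = -0.95), and AT2G27360 (-0.95). HYH differed between SA and water at 3 h by 3.9 after ZT36 and by 0.34 after ZT24, and between ZT36 and ZT24 by -4.43 in water 0 h. These correlations describe arrays that share groups, so genes with a strong group pattern score high together.

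**Figure D5:**
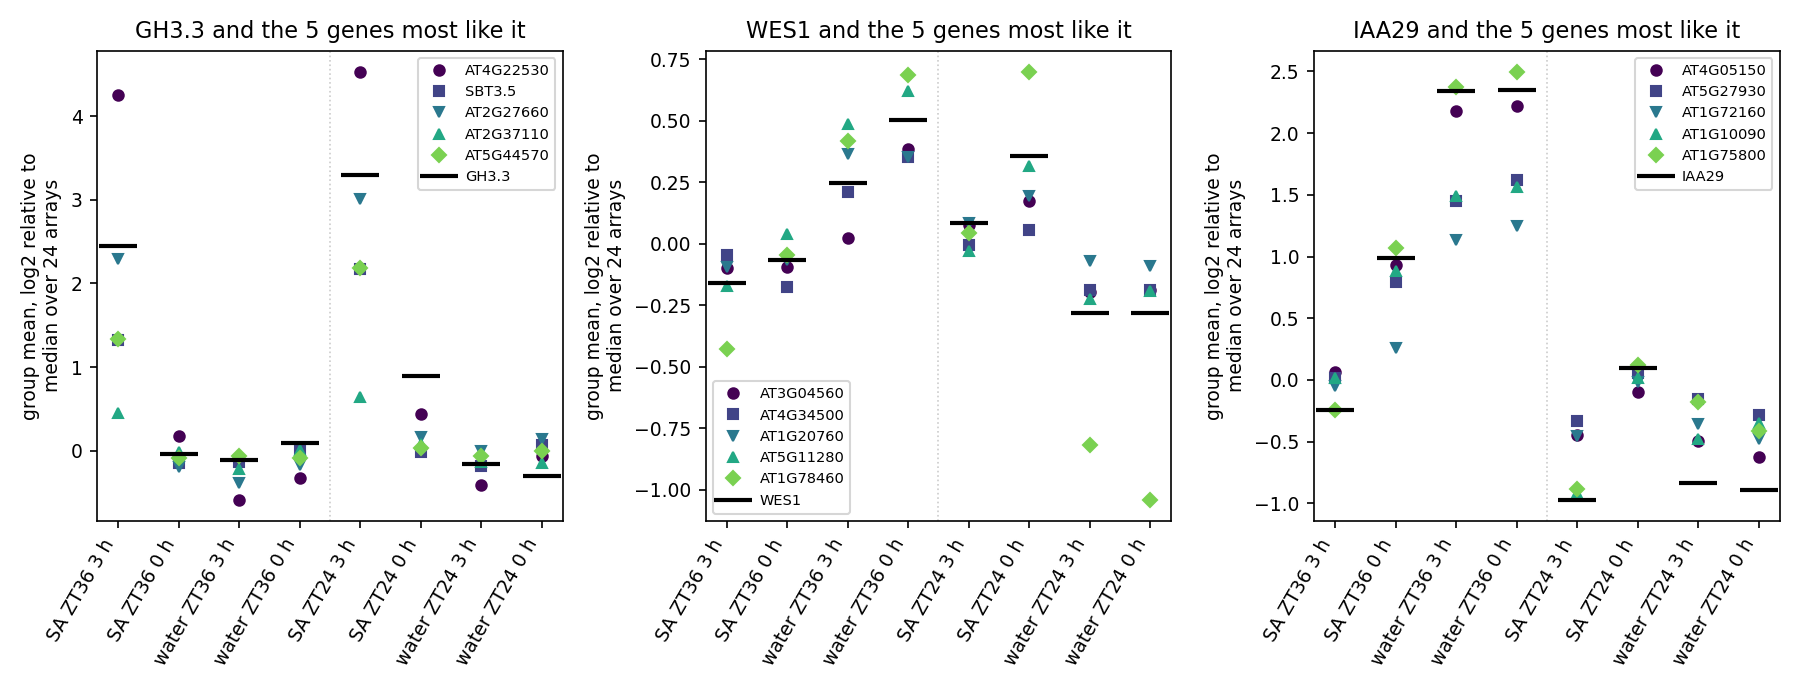
Group means (log2 relative to the gene's median, 3 arrays each) of GH3.3, WES1 and IAA29 with the 5 genes most like each over the 24 arrays. The genes beside GH3.3 peak in the SA 3 h groups, those beside IAA29 in the water groups of ZT36, and those beside WES1 vary less, apart from AT1G78460 (-1.04 to 0.70).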

How the data were processed

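The deposited values are log2 expression values of 22810 probe sets, made by the authors with RMA, per the submitters' processing notes, with no version given. The log base is taken from RMA. The median of every probe set over the arrays was already 0 (largest absolute median 5e-07), so signal over background is not known, and precision is limited by having 3 arrays in each group. The 64 control probe sets were left out. Groups followed the labelled treatment, treatment time and hours since treatment.

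A mean per group was fitted to all 24 arrays with limma 3.58.1 in R 4.3.3 (16 residual and 4.03 prior degrees of freedom). Contrasts were tested 2-sided with Benjamini-Hochberg adjustment over the 22746 probe sets of each contrast, at an adjusted p of 0.05. Steps between neighbouring levels were adjusted in the same way, in place of an adjustment over the steps of the 3 genes. A simulation with 200 altered probe sets was planned as a check of the fit. Its outcome is not given here, so nothing is drawn from it.

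The platform table gave 1 symbol for 13513 probe sets, several for 503 and none for 8730 of the tested ones, and symbols were updated through a RefSeq table of TAIR10.1, which matched 13436. Of 251 list entries 32 were measured, that is, had a probe set under a single symbol. No sequences or promoters were used here. Probe sets of related GH3 or Aux/IAA genes may share signal.

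The 3 genes and the lists were chosen with earlier results of these data known. Genes named were the 3 genes, up to 4 called genes per list with the largest change in SA against water at 3 h, UGT76B1 and GRX480, and for each of the 3 the 5 genes most and 2 least alike by Pearson's r. GH3.1, GH3.9 and GH3.17, the uncalled markers, and further contrasts of named genes were added after their values were seen.

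Alternatives were quantile normalisation of the deposited values, a fit of only the arrays compared, a trended and robust prior, array weights, leaving out the 25% of probe sets with the lowest SD (in place of the lowest mean, which centring removed), 1 probe set per gene, a block for runs of 8 title numbers, and leaving out each array. Python 3.11.15 with matplotlib 3.10.9 drew the figures.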

Additional observations from a re-analysis of the deposited data

Results flagged for a closer look

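The effect of SA against water differed between ZT36 and ZT24, by a test of the difference itself, in 4 results of 2 genes. This test called 20.7% of all probe sets at 3 h and 26.2% at 0 h. For IAA29 the 3 h effect at ZT36 minus that at ZT24 was -2.45 (log2, SE 0.49, limma adjusted p = 0.0011), and the difference of the 0 h effects was -2.35 (SE 0.49, adjusted p = 0.0011). For WES1 these differences were -0.77 at 3 h (SE 0.26, adjusted p = 0.0392) and -1.21 at 0 h (SE 0.26, adjusted p = 0.0014). The WES1 call at 3 h was lost in 2 of the 7 other settings (adjusted p up to 0.0607) and without any of 7 of the 12 arrays (adjusted p up to 0.119). In both genes the difference was present in the arrays labelled 0 h. Counted from SA 0 h, the changes after ZT36 and after ZT24 were not called different. That difference was -0.17 for IAA29 (limma adjusted p = 0.963) and 0.18 for WES1 (adjusted p = 0.901). The part of whatever sets the SA 0 h arrays apart from the water 0 h arrays in these differences was not tested.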

How the results depend on the processing

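Each result of the 3 genes (17 contrasts of each, 51 results) was recomputed under 7 other settings and without each array in turn. The trended and robust prior and 1 probe set per gene changed no call or direction among the 51. Quantile normalisation kept 40, lost 3 calls, gained 6 and turned the direction of 2, which were IAA29 in SA against water at 3 h after ZT24 (0.25) and in water 3 h against water 0 h at ZT36 (0.24). Among the calls it lost was IAA29 in SA 3 h against SA 0 h after ZT24 (-0.91). A fit of only the arrays compared kept 43 and gained WES1 in SA against water at 3 h after ZT36 (-0.40), and it lost the WES1 difference of the 3 h effects (-0.77), as did array weights (-0.68), which kept 45. Leaving out the probe sets of lowest SD kept 50. The causes were not tested.

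The replicate block on runs of title numbers kept 50 of the 51 and gained IAA29 in SA against water at 0 h and ZT24 (0.98, limma adjusted p = 0.0466). Deviations of same-run samples from their group means correlated between -0.36 and 0.45 (median 0.04). For samples of different runs and groups the median was -0.02. What samples of a run share beyond these numbers was not tested.

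Without single arrays the WES1 values ran from 0.12 to 0.51 for SA against water at 3 h after ZT24, -0.92 to -0.52 for the difference of the 3 h effects, 0.41 to 0.61 for ZT36 against ZT24 in water 3 h, and -0.52 to -0.12 for SA 3 h against SA 0 h after ZT24. Further WES1 ranges were -0.39 to 0.0036 for ZT36 against ZT24 in SA 3 h, and -0.062 to 0.055 for water 3 h against water 0 h at ZT24. IAA29 ran from -1.46 to -0.99 for SA 3 h against SA 0 h after ZT36, -1.27 to -0.90 after ZT24 and -0.39 to 0.074 for the difference of these. Its water 3 h against water 0 h values lay between -0.36 and 0.53 at ZT36 and between -0.079 and 0.15 at ZT24. GH3.3 ran from -1.43 to -0.44 for the difference of the 3 h effects, -0.44 to 0.55 for that of the changes from SA 0 h, -0.24 to 0.067 for SA against water at 0 h and ZT36, and -0.00079 to 0.11 for ZT36 against ZT24 in water 3 h.

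The count of called auxin genes for SA against water at 3 h after ZT24 was 5 of 22, beside 38.1% of all probe sets. It was 3 after quantile normalisation or with only the arrays compared. For the 0 h difference of effects it was 3 of 22, beside 26.2% of all probe sets, against 5 or 6 in 3 settings. For ZT36 against ZT24 in SA 0 h it was 4 of 22, beside 24.5%, against 7 or 8 in 2 settings. The shares of all probe sets are those of the main fit. The test of the changes from SA 0 h called 136 probe sets, against 1017 after quantile normalisation, and ZT36 against ZT24 in SA 3 h called 6358, against 3443. Signal over background is unknown here, with 3 arrays per group.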

Other observations

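Other genes of the auxin and shade lists also differed between ZT36 and ZT24 in water leaves. Among the 22 measured auxin genes the 0 h samples called 4 higher and 2 lower at ZT36, 27.3% of the genes beside 40.9% of all probe sets. Besides WES1 and IAA29, the higher ones were IAA18 (0.44, log2, limma adjusted p = 0.00216) and IAA34, another Aux/IAA gene (0.26, adjusted p = 0.0311). UGT74D1, which glucosylates auxin, was lower at ZT36 (difference -2.13, adjusted p = 1.51e-11), as was GH3.9, a GH3 enzyme (difference -0.37, adjusted p = 0.0382). The shade-responsive genes HAT2 and FHL were higher at ZT36 by 0.87 (adjusted p = 0.000629) and 1.34 (adjusted p = 0.00014). In the 3 h samples of water UGT74D1 differed by -2.08, IAA18 by 0.39, HAT2 by 0.74 and FHL by 1.28, all of them called. IAA34 (0.08, adjusted p = 0.521) and GH3.9 (-0.33, adjusted p = 0.0667) were not called there. IAA34 and GH3.9 were chosen after their values were seen.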
